A study of Homo sapiens with 3 samples.

Results

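The regions described here are the 500 strongest isolated peaks between genes in an ATAC-seq library of hCMEC/D3 cells, out of 106415 peaks in all. In ATAC-seq an enzyme, Tn5, inserts sequencing adapters where DNA is open, and a peak is a stretch where the sequenced tags pile up. A peak was eligible when it lay on chromosomes 1 to 22 or X, more than 10 kb from the extent of every gene of the gene table, with no other peak within 12.5 kb. Of the 106390 peaks on these chromosomes, 30009 lay outside every gene, 14012 were more than 10 kb away from one, and 3759 of those were also isolated. The members were chosen by pileup, the height of the stacked tags averaged over the length of the peak. It is a mean and not a count of tags, and pileups in tags below are such means. The 500 highest made up 13.3% of the eligible peaks. The other 3259 eligible peaks, called the remaining peaks below, served as the comparison.

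hCMEC/D3 is a human endothelial line, immortalized from small vessels of the brain and grown here to confluence on collagen and used at early passage. The samples given are 1 ATAC library (replicate 2) and 2 RNA libraries of this untreated line. With 1 ATAC library of 1 line, no difference between peaks has a replicate check. Peaks are not replicates of a condition, so the groups are described by medians, shares and 95% intervals with no p-value, and the intervals cover only the number of peaks counted. Of 22 general endothelial markers, 21 had a peak within 1 kb of an end of the gene, and so did 29 of 34 brain endothelial, 11 of 15 mesenchymal, 13 of 23 other brain cell and 10 of 10 housekeeping genes. Over all 20037 protein-coding genes, 14595 (72.8%) had such a peak.

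Accessible DNA far from genes often marks enhancers, insulators or other regulatory elements, which transcription factors keep free of nucleosomes. Enhancers can act on a gene over long distances and need not act on the nearest one, so a nearest gene is a landmark and not an assigned target. In endothelium, enhancers are bound by factors of the ETS, AP-1, GATA and SOX families, among others.

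The bases under the peaks themselves are not printed here, because no genome sequence was used. Promoters of nearby genes give the other side of the landmark, and 27 genes were looked up: those nearest to the 20 members of highest pileup and the 10 genes nearest to the most members. Of these, 13 had a peak over their RefSeq promoter, 8 had none and 6 had no entry. The 3 below were picked after their values were seen, for an accessible promoter beside members that lead the ranking or share a gene. S1PR1 is a sphingosine 1-phosphate receptor abundant in endothelium, ADGRL4 an adhesion receptor of endothelial cells, and NDFIP2 an adaptor of ubiquitin ligases. Each run is the 250 bases before the start, 5′ to 3′ on the gene's strand, from RefSeq at GRCh38.p14. Capitals mark matches on either strand to the letters TGANTCA (AP-1), GGAATG (TEAD), ACAGGAAG or AACAGGAA (both ETS).
S1PR1 (chr1:101236769-101237018, plus strand): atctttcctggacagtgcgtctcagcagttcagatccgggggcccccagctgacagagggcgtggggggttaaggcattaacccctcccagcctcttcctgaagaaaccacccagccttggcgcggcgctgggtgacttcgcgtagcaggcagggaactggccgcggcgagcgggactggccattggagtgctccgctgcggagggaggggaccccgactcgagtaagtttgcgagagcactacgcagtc
ADGRL4 (chr1:79006731-79006980, minus strand): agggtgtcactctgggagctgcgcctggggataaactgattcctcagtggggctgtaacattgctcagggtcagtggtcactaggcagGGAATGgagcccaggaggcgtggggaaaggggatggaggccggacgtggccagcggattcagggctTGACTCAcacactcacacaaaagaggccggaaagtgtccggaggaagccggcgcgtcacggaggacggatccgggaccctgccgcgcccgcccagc
NDFIP2 (chr13:79480905-79481154, plus strand): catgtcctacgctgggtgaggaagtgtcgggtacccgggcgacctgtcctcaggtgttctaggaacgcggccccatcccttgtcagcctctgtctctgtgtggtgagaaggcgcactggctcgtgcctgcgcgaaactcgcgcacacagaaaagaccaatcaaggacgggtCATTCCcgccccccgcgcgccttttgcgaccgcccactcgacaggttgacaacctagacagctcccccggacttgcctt

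The ADGRL4 promoter held 1 match to TGANTCA and 1 to GGAATG, NDFIP2 held 1 match to GGAATG, and S1PR1 held none. These letters are common: TGANTCA stood in 6.55% of 27195 promoters of this length, GGAATG in 11.9%, ACAGGAAG in 2.36% and AACAGGAA in 1.77%. Among the 345 promoters found for genes nearest to a member, the shares were 5.51%, 8.99%, 1.74% and 1.16%. None of the 4 strings was more frequent in promoters beside members than in promoters at large. The 2 sets are unlike, because the 345 belong to protein-coding genes alone and the promoters at large include other kinds of genes. No comparison within protein-coding genes was made. The peak over the S1PR1 promoter had a pileup of 50.03 tags, that over ADGRL4 49.7 tags and that over NDFIP2 49.6 tags.

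Pileup ran from 26.41 to 149 tags among the members, with a median of 35.03 and quartiles of 29.8 and 43.2. The remaining peaks ran from 8.0 to 26.41 tags with a median of 13.9. These values made the choice and are given only to describe it. The last members taken had 26.47, 26.44 and 26.41 tags, and the first peaks left out had 26.41, 26.38 and 26.36 tags, so the boundary fell in a continuous run of values and a tie there was settled by position. The distribution had a long upper end: 162 members reached 40 tags, 72 reached 50, 33 reached 60, 5 reached 80 and 2 exceeded 100.

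**Figure D1:**
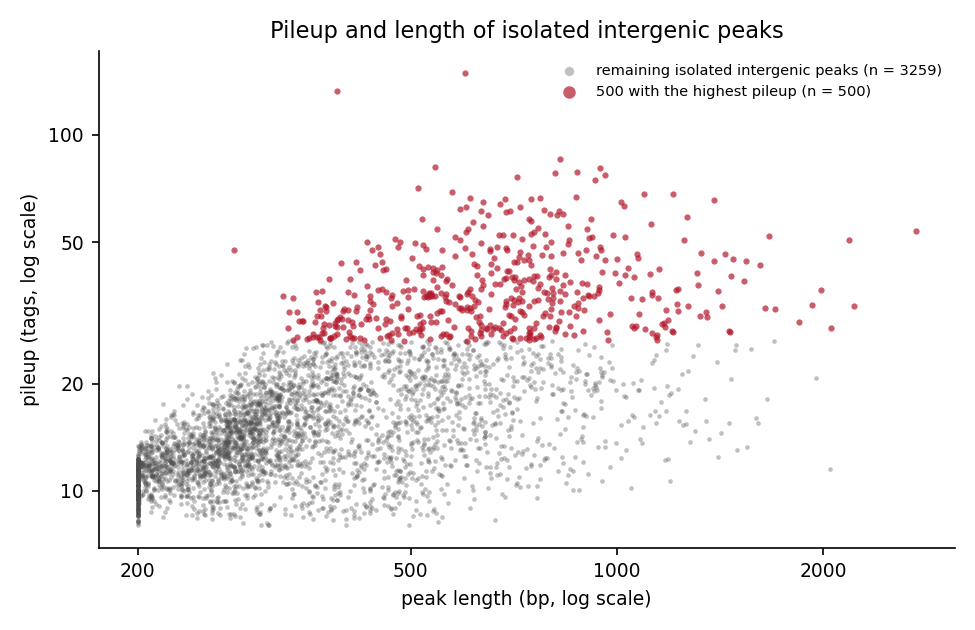
Pileup (tags, log scale) against length (bp, log scale) of the isolated intergenic peaks, each point a peak; red points are the 500 with the highest pileup and grey points the remaining 3259. The red points start at 26.41 tags, where the choice was made, 2 of them lie above 100 tags, and the column of grey points at 200 bp is the shortest length in the list.

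The 2 peaks above 100 tags stood apart from the rest, the second being 1.54 times the third. The highest, on chromosome 3 from 93470289 to 93470889, had 149 tags, a fold of 14.3 and a length of 601 bp. Fold is the pileup over the local background that the peak caller estimated from the same library. This peak lay 402 kb from PROS1, which encodes the anticoagulant protein S, and 3988 kb from EPHA3, an ephrin receptor gene, with no other peak within 373 kb. The second, on chromosome 13 from 109424040 to 109424430, had a pileup of 132.6 tags over 391 bp and the highest fold of the 500, at 20.8. It lay between MYO16, an unconventional myosin gene 216 kb away, and IRS2, an insulin receptor substrate gene 328 kb away, and neither end of MYO16 had a peak. No list of regions with unreliable signal was applied, and whether the 149 and 132.6 tags are reliable at these positions was not tested.

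The next 18 peaks fell between 65.7 and 85.9 tags without such a gap. The third was on chromosome 17 from 3048590 to 3049416, with 85.9 tags, between RAP1GAP2 at 10.8 kb, a regulator of the Rap1 GTPase, and the olfactory receptor gene OR1D5 at 13.3 kb. The fourth, on chromosome 3 from 106765267 to 106765809, had 81.4 tags and lay 612 kb from CCDC54. The fifth, on chromosome 1 from 115545588 to 115546532, had 81.0 tags and lay 95.4 kb before VANGL1, a planar cell polarity gene. The surroundings of these leading peaks ranged from short gaps between genes to gene-poor stretches, and over the 20 highest the nearest protein-coding gene was 10.8 to 890.5 kb away.

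Further peaks among the 20 highest, given as examples, differed in their surroundings. A peak of 70.9 tags on chromosome 1 from 101200431 to 101200943 lay 35.96 kb before S1PR1, the receptor whose promoter is shown above, and had 28 other peaks within 100 kb, the densest surroundings of the 20. A peak of 76.3 tags on chromosome 10 from 74799676 to 74800389 lay 24.5 kb before KAT6B, a histone acetyltransferase gene whose highest end peak reached 95.7 tags. A peak of 68.1 tags on chromosome 5 from 171595759 to 171596964 lay 138 kb beyond the far end of FGF18, a fibroblast growth factor gene. In contrast, a peak of 69.0 tags on chromosome 3 from 109927097 to 109927670 lay 587 kb from DPPA4, had 1 other peak within 100 kb, and its nearest gene had no end peak. Of the 20, 13 had a nearest protein-coding gene with a peak at an end, compared with 375 of all 500. Ends are those of the whole gene extent, so a gene with no end peak can still have an accessible promoter. NFIB, nearest to the peak ranked 18, had no end peak but a peak of 73.6 tags over its RefSeq promoter.

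Members were longer than the remaining peaks. They covered 276 to 2727 bp, median 662.5 bp (95% interval of the median 633 to 692, n = 500), against 200 to 2043 bp, median 311 bp (306 to 317, n = 3259). A length of at least 500 bp was reached by 76.0% of members (72.1% to 79.5%) and 19.7% of remaining peaks (18.3% to 21.1%), and a length of at least 1000 bp by 14.2% and 1.99%. Only 1 member was under 300 bp, compared with 45.4% of remaining peaks. Length is not independent of the choice, since longer peaks tend to have higher pileup in this list: over the remaining peaks Spearman's rho of length with pileup was 0.49 (n = 3259), and over the members 0.26 (n = 500). Both are descriptions across peaks of 1 library.

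The longest members were broad and of low fold. The longest, on chromosome 4 from 49709236 to 49711962, covered 2727 bp with 53.7 tags, a fold of 3.51, the lowest of the 500, and the highest local background, 14.6 tags. It lay 647 kb from CWH43. Here too no list of regions with unreliable signal was applied, and whether this signal is reliable was not tested. The second longest, on chromosome 7 from 106344738 to 106346950, covered 2213 bp with 33.0 tags at a fold of 4.63 and lay 58.8 kb before NAMPT, which encodes an enzyme of NAD salvage and whose highest end peak reached 88.9 tags. Others among the 5 longest lay near LMNTD1 (2177 bp), PID1 (2049 bp) and TFAP2B (1981 bp), a developmental transcription factor gene with no end peak. At the other extreme, the shortest member, on chromosome 7 from 145997245 to 145997520, had a pileup of 47.5 tags over 276 bp and the second highest fold, 14.4. It lay 119 kb before CNTNAP2, a neuronal cell adhesion gene with no end peak, and no other peak was called within 1142 kb, the widest empty surroundings of any member.

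Fold and background followed length in opposite directions among the members, with a rho of -0.71 for length with fold and 0.78 for length with local background (n = 500 peaks). Across the remaining peaks the rho of length with fold was 0.47. The caller estimates the background over 10000 bp around a peak, the peak itself included, so length, pileup, fold and background are not independent measures. The background does not fall below a floor of 2.37 tags, set by the tags kept, their extension and the genome size. That genome size was the preset for mouse, and its effect on fold and background was not tested. The median background was 3.40 tags for members and 2.37 tags for remaining peaks. It lay within 0.01 tags of the lowest value, 2.37 tags, for 17.2% of members and 94.4% of remaining peaks. At the floor, fold is set by pileup alone, so the rho values of length with fold in the 2 groups are not like measures. The rho of pileup times length with local background was 0.94 for members and 0.17 for remaining peaks. Ranking the eligible peaks by fold instead kept 367 of the 500 members.

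Members were found on all 23 chromosomes, from 4 each on chromosomes 19 and 22 to 51 on chromosome 2. The share of a chromosome's eligible peaks that were members was lowest on chromosome 18, at 9.43% (10 of 106, 95% Wilson interval 5.21% to 16.5%). It was highest on chromosome 17, at 22.5% (16 of 71, 14.4% to 33.5%), and next on chromosome 16, at 20.7% (17 of 82, 13.4% to 30.7%). Those 2 intervals lay above the overall 13.3%, that of chromosome 16 by less than 0.1 percentage points, and the other 21 held it; the intervals are not corrected for the 23 chromosomes examined. Chromosome 17 gave few eligible peaks, 1.46% of its peaks, against 7.20% on chromosome X.

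**Figure D2:**
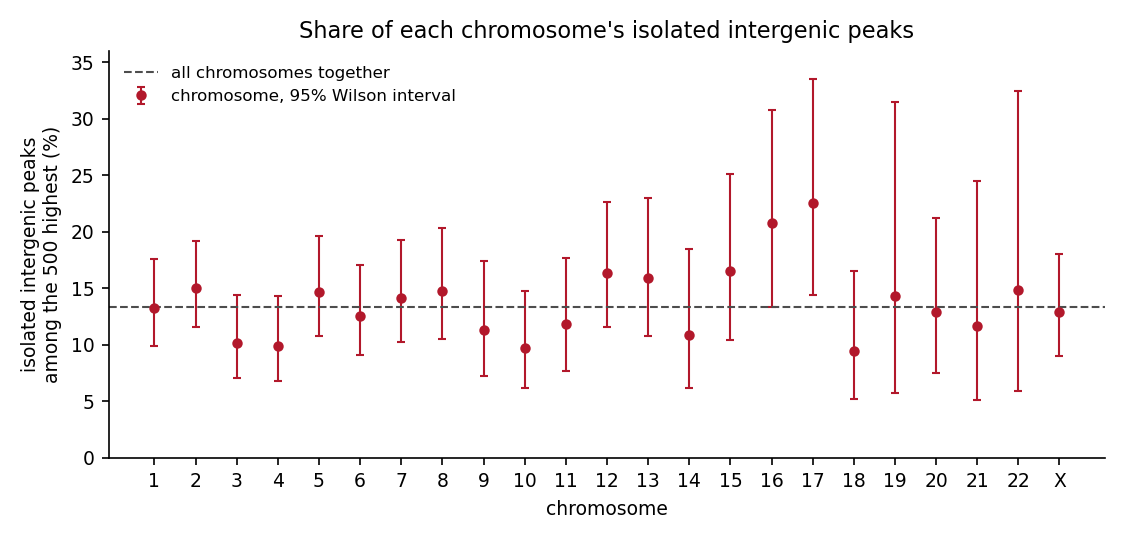
Share of each chromosome's isolated intergenic peaks that were among the 500 highest (%), by chromosome; points are shares, bars 95% Wilson intervals, and the dashed line the share over all chromosomes. The bars of 21 chromosomes cross the line at 13.3%, and those of chromosomes 16 and 17 start above it.

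Members lay modestly nearer to genes than remaining peaks, by a margin that shrank under some of the alternatives given at the end. The nearest protein-coding gene was a median of 65.7 kb from members (95% interval 57.1 to 75.9) and 77.8 kb from remaining peaks (72.6 to 82.9), and the intervals overlapped. In the nearest class, 10 to 25 kb away, were 23.2% of members (19.7% to 27.1%) and 18.5% of remaining peaks (17.2% to 19.9%). Beyond 500 kb were 9.0% and 8.25%. The member farthest from a protein-coding gene, on chromosome 18 from 39946523 to 39947169 with 28.5 tags, lay 2008 kb before PIK3C3, which encodes a lipid kinase of autophagy. The next lay 1298 kb before CNTN5, a neural adhesion gene, on chromosome 11 from 97721858 to 97722760 with 54.3 tags.

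The kind of neighbouring gene was alike in the 2 groups. Counting genes of every kind, the nearest was a long noncoding RNA gene for 41.4% of members and 42.3% of remaining peaks, a protein-coding gene for 27.4% and 28.0%, and a pseudogene for 28.2% and 26.8%. Where RefSeq promoters gave the gene's strand, the side facing the peak was the start for 209 of 390 members (53.6%, 48.6% to 58.5%) and 1342 of 2559 remaining peaks (52.4%, 50.5% to 54.4%). A peak at an end of the nearest protein-coding gene was found for 375 of 500 members (75.0%, 71.0% to 78.6%) and 2324 of 3259 remaining peaks (71.3%, 69.7% to 72.8%). The same share over all 20037 protein-coding genes was 72.8%. Counting each gene once, it was 331 of 444 genes (74.5%) and 1454 of 2071 genes (70.2%), with 238 genes in both counts and overlapping intervals. Where those genes had an end peak, the highest one had a median of 41.3 tags beside members and 40.8 tags beside remaining peaks, against 45.7 tags over all protein-coding genes.

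The surroundings beyond the isolation limit differed more clearly. Members had a median of 8 other peaks within 100 kb (95% interval 7 to 8) and remaining peaks 5 (5 to 5). At least 5 such neighbours were found for 72.2% of members (68.1% to 75.9%) and 55.3% of remaining peaks (53.6% to 57.0%), and none for 4.8% and 9.02%. The nearest other peak was a median of 20.8 kb away from members and 26.7 kb from remaining peaks. Both groups lay in sparser surroundings than the median of 14 over all 106415 peaks, as the rule requires. When the same share of peaks was taken within each of 10 classes of length, the medians were 6 and 5, with 241 of the members still among those taken.

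**Figure D3:**
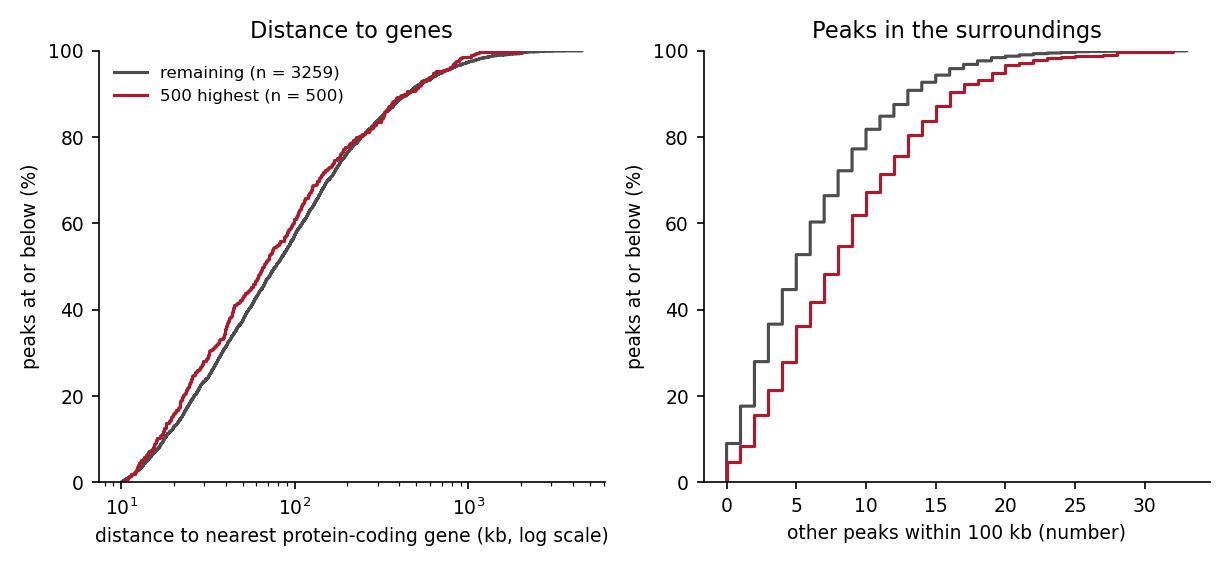
Cumulative share of peaks (%) by distance to the nearest protein-coding gene (left, kb, log scale) and by number of other peaks within 100 kb (right), for the 500 highest (red) and the remaining 3259 (grey) isolated intergenic peaks. The curves on the left run close together, with medians of 65.7 and 77.8 kb, and on the right the red curve lies to the right, with medians of 8 and 5 peaks.

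Within the members, distance and gene ends did not follow the order of pileup. In 5 groups of 100 by falling pileup, the median distance to a protein-coding gene was 72.1, 59.9, 74.7, 71.2 and 52.6 kb. The nearest gene had an end peak for 71, 75, 81, 79 and 69 of each 100. Median length was 735.5 bp in the highest group and 605.5 bp in the lowest.

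The 500 members had 444 different nearest protein-coding genes, of which 401 were nearest to a single member, 33 to 2, 8 to 3 and 2 to more. SEMA3C, which encodes a secreted semaphorin that guides axons and acts in vessel development, was nearest to 5 members and 3 remaining peaks. One lay 19.8 kb before its start on chromosome 7 from 80942201 to 80943160, with 77.2 tags, and another 19.2 kb beyond its far end from 80721936 to 80723321, with 65.7 tags. The other 3 members lay close together 345 to 377 kb before the start, with 30.9, 29.0 and 47.5 tags, on the side of HGF, the hepatocyte growth factor gene. The 2 peaks that flank the gene were thus the strongest of the 5 members, and both ranked among the 20 highest. The highest end peak of SEMA3C had 20.2 tags and lay at its far end. No peak lay over its RefSeq promoter, but a peak of 61.5 tags lay 3.3 kb inside the gene from its start.

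**Figure D4:**
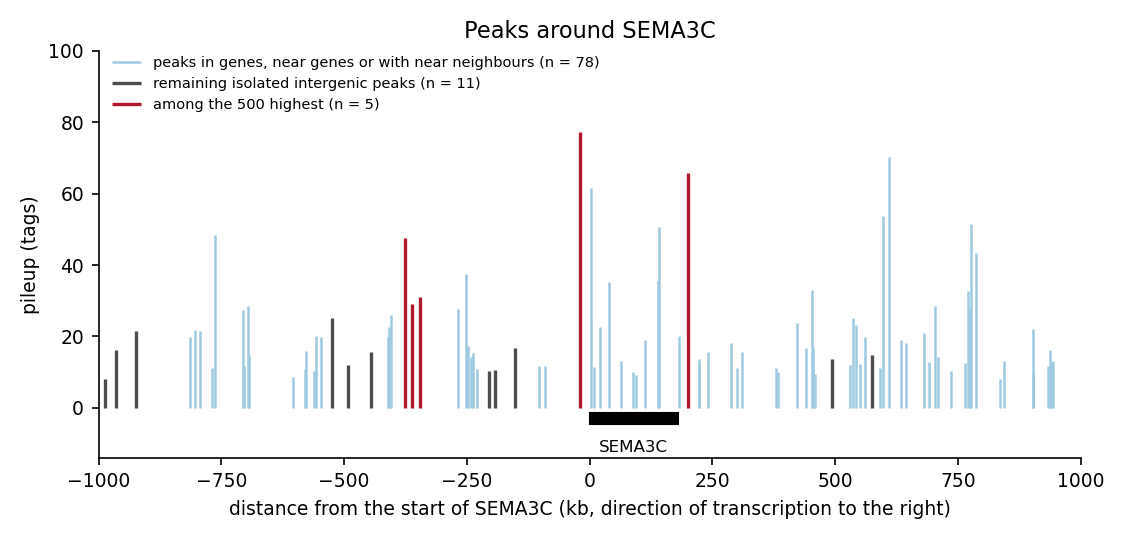
Pileup (tags) of every peak within 1000 kb of the start of SEMA3C, by distance from that start (kb, transcription to the right); red lines are the 5 peaks among the 500 highest, dark lines 11 remaining isolated intergenic peaks, pale lines the other 78 peaks, and the black bar is the gene. The 2 tallest red lines, 77.2 and 65.7 tags, stand on either side of the gene.

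Members also shared intervals between neighbouring protein-coding genes: 131 of them lay in an interval with at least 1 other member, a count with no comparison to other sets of peaks. The interval of 719 kb between FOXL1, a forkhead factor gene, and C16orf95 on chromosome 16 held 6 members and 1 remaining peak. Their pileup ran from 33.6 to 53.2 tags. The interval of 315 kb between FGF18 and SMIM23 on chromosome 5 held 5 members of 35.1 to 68.1 tags within 148 kb, and 2 remaining peaks. That is the densest run of members relative to its length among the 5 intervals with over 3 members.

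The interval between ADGRL4 and ADGRL2, a pair of adhesion receptor genes on chromosome 1, spanned 2299 kb and held 4 members and 8 remaining peaks. The strongest, from 79079727 to 79080363 with 64.6 tags and a fold of 11.3, lay 73.0 kb before ADGRL4. The interval between NDFIP2 and SPRY2, a feedback inhibitor of receptor tyrosine kinase signalling, held 4 members of 28.0 to 52.5 tags on chromosome 13. It also held 6 remaining peaks. The members within an interval were at least 12.5 kb apart by the rule.

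Panels and families of genes were then counted among the nearest genes. Of the 22 general endothelial markers, 0.110% of protein-coding genes, EMCN, encoding the endothelial sialomucin endomucin, was nearest to 1 member (0.2%), and none was nearest to a remaining peak. The EMCN peak, on chromosome 4 from 100348499 to 100348878, had 39.5 tags and a fold of 11.98 at 46.5 kb beyond the far end of the gene. Of 34 brain endothelial genes, IGFBP7, a secreted binding protein of the vessel wall, was nearest to 1 member, 833 kb away with 34.7 tags, and the panel to 6 remaining peaks. Mesenchymal, other brain cell, housekeeping and AP-1, TEAD and YAP panels had no member, with 6, 7, 3 and 3 remaining peaks. With 500 members, a count of 0 allows a share of up to 0.762% (Wilson), above the share of each panel among the remaining peaks, so the 2 groups could not be told apart at this number.

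Developmental transcription factor families, 240 genes or 1.198% of protein-coding genes, were nearest to 18 members (3.6%, 2.29% to 5.62%) and 111 remaining peaks (3.41%, 2.84% to 4.09%). Both shares of peaks stood above the share of genes, which is an unlike measure, because a gene can be nearest to several peaks. The shares of the 2 groups did not differ beyond their intervals. NR2F2, a factor of venous identity, was nearest to 2 members and 7 remaining peaks on chromosome 15. The members had 39.3 and 38.5 tags and lay 641 and 591 kb before its start. FOXL1 was nearest to 2 members, with 44.8 tags at 25.03 kb and 33.6 tags at 318 kb, and to 1 remaining peak. RUNX1, a factor of blood and endothelial development, was nearest to a peak of 32.9 tags with a fold of 9.97, 254 kb before its start on chromosome 21 from 35302977 to 35303581. The rest included FOXN3, TFAP2B, MEIS1, GATA6, DLX2, TBX18, FOXP2, POU3F4, TWIST2, EBF2, FOXB1 and TBX5, with 26.7 tags at TBX5 to 44.0 at FOXN3. TFAP2B, POU3F4 and TBX5 had no end peak of their own, and the highest end peak of the others named ran from 12.2 tags at FOXP2 to 65.6 at TBX18.

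Guidance ligands and receptors, 0.339% of protein-coding genes, were nearest to 8 members (1.6%, 0.813% to 3.13%) and 41 remaining peaks (1.26%). Besides the 5 at SEMA3C, these were 1 each at UNC5A, a netrin receptor gene, with 37.4 tags, SLIT3, a secreted guidance factor gene, with 35.02 tags, and SEMA3E, whose product acts on vessel growth, with 27.8 tags. Secreted signalling factors, 0.818% of genes, were nearest to 8 members (1.6%) and 59 remaining peaks (1.81%). They included 2 at FGF18 (68.1 and 52.1 tags) and 1 each at the chemokine genes CXCL12 (34.9 tags), CXCL6 (34.0 tags) and CXCL1 (30.4 tags). PDGFD, WNT8B and FGF12 completed the list with 34.3, 29.3 and 27.6 tags. The CXCL6 peak, on chromosome 4 from 73816660 to 73817286, lay 19.4 kb before its start, and the CXCL1 peak, from 73917113 to 73917547, lay 45.8 kb beyond the far end of that gene.

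Zinc finger genes named ZNF, 2.54% of protein-coding genes, were nearest to 7 members (1.4%, 0.680% to 2.86%) and 67 remaining peaks (2.06%). The strongest of the 7 was a peak of 51.5 tags, 24.3 kb beyond the far end of ZNF648. Cadherin and protocadherin genes, 0.469% of genes, were nearest to no member and to 28 remaining peaks (0.859%, 0.595% to 1.24%), and olfactory receptor genes, 1.96% of genes, to no member and 6 remaining peaks (0.184%). For both, the share of 0 allows up to 0.762%, which overlaps the interval of the remaining peaks. The olfactory receptor share lay below the share of genes in members and remaining peaks, again a share of peaks set against a share of genes.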

How the data were processed

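The authors deposited a broad peak list for the ATAC library, with a pileup signal, a ratio to the local background (fold), and the −log10 of a p-value and of a q-value for each peak. It was made with MACS 2.2.7.1 without a control, per the file headers: 22188172 of 31532245 tags were kept, extended to 200 bp after a shift of -100 bp, and called at q of 0.05 and 0.1 with a genome size of 1870000000 bp, the preset of MACS for mouse. The submitters' processing notes name Bowtie2, GRCh38 and mm10 without roles, and the list names no build. With no offset 51.4% of 27305 RefSeq promoters (GRCh38.p14) held a peak, against at most 5.57% at offsets of 2 to 50 kb, and all 22 chromosomes compared were highest without one. Gene extents came from the RefSeq table of that assembly (59679 genes, 20037 protein-coding), and its gene coordinates are not printed.

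Distances run from edge to edge. Local background was taken as (pileup + 1) / fold - 1, which returned the floor that the header implies, 2.37 tags. Gene ends are 1 kb either side of either end. Intervals are 95% Wilson for shares and binomial order statistics for medians. The members and lists were chosen with earlier results of these data known. Named peaks were the 20 highest, those at the boundary, the 5 longest, shortest, farthest and of highest fold or background, listed genes nearest to a member, and the 10 genes nearest to the most; where several fell under one heading, examples are given, and intervals with over 3 members were added after values were seen. The steps were tested on simulated data. The RNA tables were not used, because no file used here links their transcripts to genes. Python 3.11.15, pandas 2.3.3 and scipy 1.17.1 were used.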

Additional observations from a re-analysis of the deposited data

How the results depend on the processing

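Of 51 alternative values over 4 results, 29 stayed inside the 95% interval of the reported value, 22 moved and none reversed the order of members and remaining peaks. The alternatives for the number of peaks within 100 kb were chosen after seeing the data. The median length of 662.5 bp became 708.5 bp for the 250 highest and 555.5 bp for the 1000 highest, 538 bp ranked by fold, 561 bp beyond 25 kb from genes and 781 bp with protein-coding genes alone kept away from. It was 776 bp and 501 bp with isolation of 5 and 25 kb, 703.5 bp for peaks of −log10 q of at least 5, 565.5 bp with the background limited to 2 times its median, and 337 bp when taken within 10 classes of length, which sets it equal to the remaining peaks (336.5 bp) by construction. The median distance of 65.7 kb became 56.8 and 118.5 kb with genes 5 and 25 kb away, the latter against 118.6 kb for remaining peaks, and 49.0 and 98.7 kb with isolation of 5 and 25 kb. The gap between the groups varied too. Members and remaining peaks had medians of 73.3 and 75.4 kb ranked by fold, and 66.0 and 67.0 kb for peaks of −log10 q of at least 5. Within 10 classes of length the medians were 63.1 and 78.1 kb. The share with an end peak, 75.0%, was 79.0% with isolation of 5 kb, 70.6% in windows of 500 bp and 81.2% in windows of 2500 bp. The 8 peaks within 100 kb became 6 beyond 25 kb from genes, 12 and 4 with isolation of 5 and 25 kb, 6 for peaks of −log10 q of at least 5 and 6 within 10 classes of length. The cause of the other moves was not tested. No paired analysis was possible because there is 1 ATAC library. The lowest pileup among the isolated intergenic peaks was 8.0 tags, and nothing can be said of weaker sites; the parts of depth, q threshold and genome size in that limit were not tested.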
